A study of Mus musculus with 4 samples.

Results

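Actin cytoskeleton and focal adhesion genes were followed in LPS-stimulated mouse macrophages kept with or without galectin-1. The set holds 49 gene symbols for actins, actin-binding proteins and focal adhesion proteins, and all 49 were found among the 23284 symbols of the deposited tables. Members were chosen by name alone, but the list was drawn up with results of the galectin-1 comparison in these libraries known. Counts over the list are therefore descriptions, and no test was made over the list. Bone marrow-derived macrophages, cells grown from the marrow of wild-type mice, received lipopolysaccharide (LPS, a bacterial cell wall component) at 1 µg/ml for 1 h in every culture. The vehicle group (phosphate-buffered saline, 2 libraries) and the galectin-1 group (recombinant mouse galectin-1, a lectin that binds galactosides, 2 libraries) were then cultured for 24 h. Sources used here do not give the age or strain of the mice or the galectin-1 dose. No library without LPS was analysed here.

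Actin is stored as monomers and assembles into filaments, which push the membrane forward at the cell edge and, with myosin, pull on the substrate. Focal adhesions and the podosomes of macrophages couple these filaments to integrins through talin, vinculin, paxillin and zyxin. Many of these genes, the actin genes among them, are known targets of serum response factor (Srf), whose coactivators of the MRTF family are held in the cytoplasm by actin monomers. Serum response factor binds the CArG box, a run of A and T bases between CC and GG.

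The CArG box was therefore sought in the promoter windows of the members, from 250 bases before to 50 bases after each start in RefSeq (GRCm38.p6). Windows were found for 43 of the 49 members, and 7 of them (16.3%) held an exact box, against 1.63% of the 6828 tested genes with a window and 1.63% of all 32851 windows. No window of Actb, Coro1b, Cotl1, Marcks, Pxn or Tln2 was searched. The box reads as the same motif on both strands. The starts used for Trip10, Srf, Flna, Zyx, Capg, Enah, Wdr1, Tpm1 and Pfn1 lie inside the full span of each gene in RefSeq. The edges of these spans were not searched. For each other member with a window, a window reached the edge of its span. The 7 were Actg1, Cnn2, Myl6, Myl9, Srf, Trip10 and Vcl, and Srf, which encodes the factor itself, held 2 boxes. The stretches are printed 5′ to 3′ on the gene's strand, with the boxes in capitals, because they are the one sequence feature that was searched for in common.
Srf, chr17:46556190-46556269, minus strand: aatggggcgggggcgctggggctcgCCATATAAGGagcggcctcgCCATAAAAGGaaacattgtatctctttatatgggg
Actg1, chr11:120348551-120348610, minus strand: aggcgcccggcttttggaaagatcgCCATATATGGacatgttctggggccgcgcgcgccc
Vcl, chr14:20929148-20929205, plus strand: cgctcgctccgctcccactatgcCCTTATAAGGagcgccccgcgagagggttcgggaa
Cnn2, chr10:79988519-79988578, plus strand: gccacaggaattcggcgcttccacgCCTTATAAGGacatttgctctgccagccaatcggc
Myl9, chr2:156775278-156775337, plus strand: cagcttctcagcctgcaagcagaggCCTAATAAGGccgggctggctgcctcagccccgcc
Trip10, chr17:57249290-57249349, plus strand: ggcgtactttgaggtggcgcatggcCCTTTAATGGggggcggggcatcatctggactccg

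The boxes of Srf began 82 and 62 bases before the start, that of Actg1 90 bases, that of Cnn2 56 bases, that of Trip10 136 bases, that of Myl9 161 bases and that of Vcl 227 bases. Vcl and Cnn2 shared the same letters. The box of Myl6, CCTTATATGG, lay 50 bases before 1 of its 2 starts. The stretch around it overlaps an annotated exon of Myl6, so it is not printed. The windows of Csrp1, Zyx, Flna and Fscn1 held no exact box, which says only that these letters are not in these windows.

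The tables give FPKM, fragment numbers scaled to transcript length and library size, so levels of different genes can be compared. The members made up 3.62% and 3.74% of the summed FPKM of vehicle replicates 1 and 2, and 3.44% and 3.47% of that of galectin-1 replicates 1 and 2. Their summed level was 20031 and 20238 FPKM with vehicle and 19162 and 19258 FPKM with galectin-1, lower in both galectin-1 libraries. Most of that gap came from the actin pair, whose sum went from 7757 and 7874 to 7191 and 7215 FPKM. The other 47 members summed to 12274 and 12364 FPKM with vehicle and 11970 and 12042 FPKM with galectin-1. Levels spanned 5 orders of magnitude, from Actb, the 8th highest of all symbols, to Tln2 near 0. On average over the libraries 28 members lay above 100 FPKM, and 29 were among the 1000 highest symbols.

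**Figure D1:**
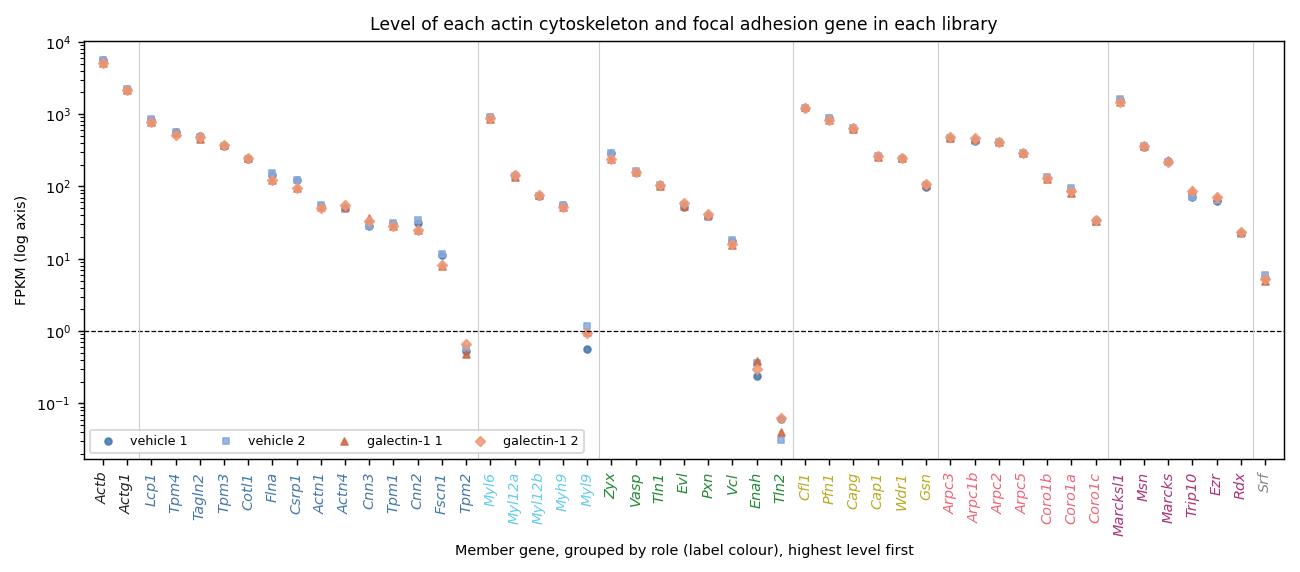
FPKM on a log axis (vertical) of each of the 49 members (horizontal, grouped by role) in each of the 4 libraries, 1 marker per library. The dashed line is the minimum of 1 FPKM for testing; Tpm2, Myl9, Enah and Tln2 lie below it on average.

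Library totals were 541138 to 557661 FPKM. Relative depth from the steps of low values was 0.879 to 1.02 of vehicle replicate 1, and the absolute depth is unknown, so no counting interval is given. Replicates correlated at 0.983 and 0.988 (Pearson r of log2 values over 9380 genes), and pairs across the groups at 0.979 to 0.986. Without the 43 small RNA entries, replicates correlated at 0.9971 and 0.9975 and pairs across the groups at 0.9949 to 0.9959. The 9 macrophage markers were all tested and 0 passed, with 8 differences positive and 1 negative. Of the 9, 7 had an unadjusted p under 0.05, where this held for 23.2% of all tested genes. Their sum was 9352 and 9347 FPKM with vehicle and 10143 and 10126 FPKM with galectin-1. Lyz2, the lysozyme gene, had 5761 and 5642 FPKM with vehicle and 6269 and 6223 FPKM with galectin-1. Markers of lymphocytes summed to at most 0.184 FPKM and those of neutrophils to at most 2.92 FPKM in a library. Those of endothelium and megakaryocytes summed to 160.2 to 173 FPKM, of which 145 to 159.5 FPKM were Pf4, which macrophages also express. Kdr, of the same list, was at 12.3 to 13.3 FPKM with overlapping groups. Markers of fibroblasts and smooth muscle were low but present, at sums over 13 genes of 24.5 and 25.2 FPKM with vehicle and 31.0 and 30.4 FPKM with galectin-1. Of the nuclear RNAs listed as signs of RNA quality, Neat1 fell and Malat1 did not pass. Neat1 had 97.1 and 106.4 FPKM with vehicle and 44.9 and 44.2 FPKM with galectin-1 (log2 difference -1.17, adjusted p = 0.00174), and Malat1 had 94.5 and 96.2 against 66.9 and 78.7 FPKM (-0.39, adjusted p = 0.0694). The part of these markers in the results below was not tested, and in bulk samples fewer cells of a type and less RNA per cell cannot be told apart.

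With galectin-1, 4 members fell and 1 rose in limma over the 9380 genes that averaged 1 FPKM or more. Csrp1, Zyx, Flna and Fscn1 were lower and Trip10 was higher, by 17.0% to 30.3% of the vehicle mean. The other 40 of the 45 tested members did not pass an adjusted p of 0.05, and 4 members were too low to be tested. Calls were made for 1.19% of all tested genes, 0.608% higher and 0.586% lower, and for 11.1% of the tested members. Above a mean of 20 FPKM calls were made for 2.82% of 3018 genes and for 4 of 42 members (9.52%). Since the list was drawn up with this comparison known, nothing is read from those differences. None of the 5 calls was kept when vehicle replicate 1, vehicle replicate 2, galectin-1 replicate 1 or galectin-1 replicate 2 was left out, with adjusted p from 0.101 to 0.221 over the 5 genes. Each of these fits sets 2 libraries against 1, so the lone library adds nothing to the spread. The spread comes from the other group and from the variance trend over all genes, and the lone library is assumed to vary alike. The log2 differences in these fits were -0.50 to -0.25 for the 4 members that fell and 0.28 to 0.29 for Trip10, and calls over all genes dropped to 4 to 9 higher and 3 to 12 lower, from 57 and 55. None was kept without the filter on low values or in limma without the variance trend either. The labels do not state whether replicates are separate cultures or animals, and the spread behind these p-values may be technical.

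**Figure D2:**
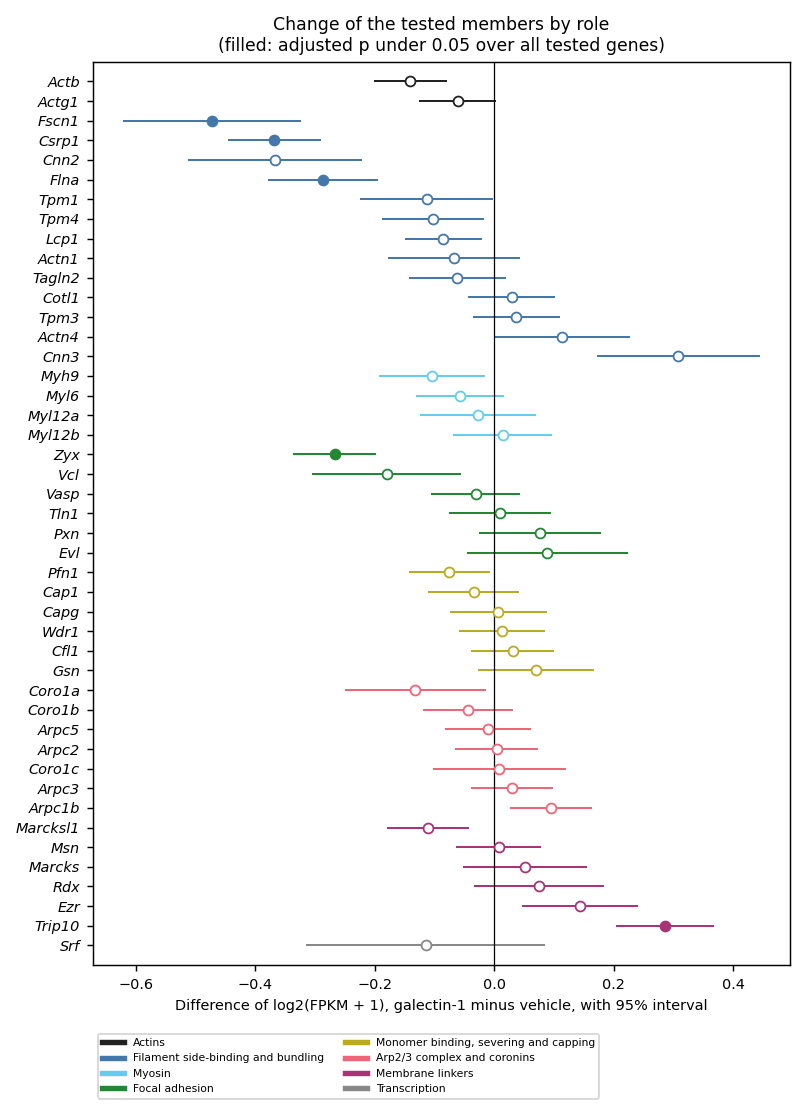
Difference of log2(FPKM + 1), galectin-1 minus vehicle (horizontal), with its 95% limma interval for each of the 45 tested members (vertical), coloured by role. Filled points mark the 4 members that were lower and the 1 that was higher at an adjusted p under 0.05; most of the others lie within 0.2 of 0.

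Differences among the members were small and went both ways. They were negative for 24 and positive for 21 of the 45, where 49.3% of all tested genes were negative, with a median of -0.03 on the log2 scale against 0.00 over all tested genes; quantile normalization left 14 positive. The members whose sign turned under it were close to 0: Myl12b, Tln1, Capg, Wdr1, Arpc2, Arpc3, Coro1c and Msn became negative and Arpc5 positive. The absolute difference was under 0.1 for 28 members, 0.1 to 0.3 for 13 and over 0.3 for 4, which were Fscn1, Csrp1, Cnn2 and Cnn3. The median gap between replicates was 0.02 in the vehicle group and 0.03 in the galectin-1 group on the same scale. The 2 groups did not overlap for 35 of the 45 (22 lower, 13 higher), where this held for 55.4% of all tested genes (26.2% lower, 29.1% higher). Above a mean of 20 FPKM it held for 63.3% of 3018 genes and for 32 of 42 members. The 95% interval lay within 0.2 of 0 for 30 of the 45, so a larger change of those is outside their intervals.

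Both cytoplasmic actins, the building blocks of the filaments, had lower values with galectin-1 without passing the test. Actb, β-actin, had 5565 and 5634 FPKM in the vehicle libraries and 5067 and 5092 FPKM in the galectin-1 libraries. Both galectin-1 libraries were below both vehicle libraries, and the mean was 9.29% lower (log2 difference -0.14, 95% interval -0.20 to -0.08, adjusted p = 0.0614). It passed under 3 of 12 alternatives, with an adjusted p of 0.0476 with a pseudocount of 0.1, 0.0382 with a minimum of 5 FPKM and 0.0311 without small RNA entries. Under the others its adjusted p was 0.0510 to 0.280, including 0.155 with quantile normalization and 0.186 to 0.280 when 1 library was left out. Actg1, γ-actin, had 2192 and 2240 FPKM with vehicle and 2124 FPKM in both galectin-1 libraries (-0.06, interval -0.12 to 0.00, adjusted p = 0.225). The ratio of Actb to Actg1 was 2.54 and 2.51 with vehicle and 2.39 and 2.40 with galectin-1, lower in both galectin-1 libraries. Of the 50-base words of the longest coding transcript of each gene, 1.6% also occurred in the other, so reads shared by the pair are few at that length.

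Among filament side-binding and bundling proteins 13 of 14 members were tested, of which 3 fell, 0 rose and 10 did not pass. Of these 13, 9 had an unadjusted p under 0.05, where this held for 23.2% of all tested genes and 42.2% of the tested members. Since the list was drawn up with results of this comparison known, nothing is read from these shares. Csrp1, which lies on chromosome 1 from 135720063 to 135752229, encodes a LIM domain protein that binds α-actinin and zyxin. It had 123 and 124 FPKM with vehicle and 95.8 and 95.5 FPKM with galectin-1. The replicates lay close together in both groups, and the groups were well apart: 123.7 ± 0.874 against 95.7 ± 0.165 FPKM (SD, n = 2 per group; log2 difference -0.37, standard error 0.03, adjusted p = 0.0232 in limma). Its adjusted p was the lowest of the members.

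Flna, on chromosome X from 74223461 to 74249854, encodes filamin A, which crosslinks filaments into networks and ties them to integrins. Flna had 144.7 and 152.4 FPKM with vehicle and 121.2 and 121.9 FPKM with galectin-1. Vehicle replicate 2 was the highest, and both galectin-1 libraries lay below both vehicle libraries (log2 difference -0.29, standard error 0.04, adjusted p = 0.0432).

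Fscn1, on chromosome 5 from 142960355 to 142973189, encodes fascin, which packs filaments into the tight bundles of filopodia and is also a marker of mature dendritic cells. It had 11.3 and 11.7 FPKM with vehicle and 7.84 and 8.18 FPKM with galectin-1, a fall of 30.3% in the mean that was the largest proportional difference of the tested members (log2 difference -0.47, standard error 0.06, adjusted p = 0.0425). Other markers of mature dendritic cells were set beside it. Of 9 listed, 4 were tested and 0 passed, and 5 stayed below 1 FPKM in each library, with Flt3, Cd209a and Zbtb46 at most at 0.0478, 0.0581 and 0.320 FPKM. Of the 4 tested, Cd83 and Ccl22 had an unadjusted p under 0.05, against 23.2% of all tested genes. Both had lower values in the galectin-1 libraries without overlap. Cd83, a surface protein on this list, had 244.7 and 243.5 FPKM with vehicle and 217.1 and 211.0 FPKM with galectin-1 (log2 difference -0.19, adjusted p = 0.0555). Ccl22, a chemokine gene, had 8.97 and 9.12 FPKM with vehicle and 7.23 and 7.46 FPKM with galectin-1 (-0.27, adjusted p = 0.0911). The groups overlapped for Ccr7, the chemokine receptor of mature dendritic cells, at 1.19 to 1.63 FPKM, and for Itgax at 1.62 to 1.88 FPKM. The sum of the list was 258 and 256 FPKM with vehicle and 228 and 222 FPKM with galectin-1, nearly all of it Cd83. Which cells the Cd83 level came from cannot be told in bulk samples. The part of mature dendritic cells in the fall of Fscn1 was not tested. Fscn1 lies 52.4 kb from Actb on chromosome 5.

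The calponins, which bind along filaments and actomyosin, went in opposite directions, and neither passed the test. Cnn2 had 31.0 and 34.3 FPKM with vehicle and 24.97 and 25.14 FPKM with galectin-1 (log2 difference -0.37, 95% interval -0.51 to -0.22, adjusted p = 0.0555). Cnn3 had 28.2 and 28.4 FPKM with vehicle and 36.9 and 33.7 FPKM with galectin-1 (0.31, interval 0.17 to 0.44, adjusted p = 0.0614). The groups did not overlap for either gene. The ratio of Cnn3 to Cnn2 was thus 0.911 and 0.829 with vehicle and 1.48 and 1.34 with galectin-1: Cnn2 was the higher of the pair in each vehicle library and Cnn3 in each galectin-1 library. This ratio was chosen after the values were seen and was not tested. The longest coding transcripts of the pair shared none of their 50-base words. Each gene passed under 3 of 12 alternatives: a minimum of 5 FPKM (adjusted p = 0.0396 for Cnn2 and 0.0473 for Cnn3), without small RNA entries (0.0231 and 0.0303) and with the replicate block (0.0315 and 0.0438). Under the others the adjusted p was 0.0502 to 0.231 for Cnn2 and 0.0574 to 0.221 for Cnn3, and neither passed when any 1 library was left out. Cnn3 is also expressed by fibroblasts, whose summed markers were higher in both galectin-1 libraries as given above. Their part in Cnn3 was not tested. Gm42928 covers 17.7% of the exonic bases of Cnn3 on the opposite strand, and its part in the Cnn3 values was not tested.

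**Figure D3:**
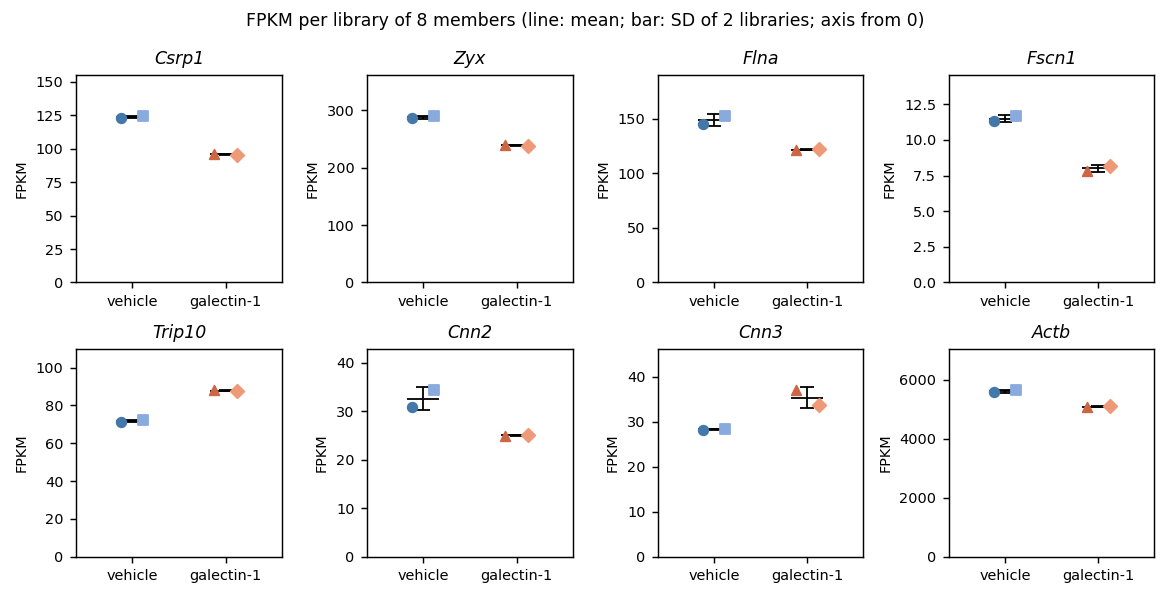
FPKM (vertical, from 0) in each library of the 5 members past the threshold and of Cnn2, Cnn3 and Actb, with vehicle and galectin-1 on the horizontal axis; lines are means and bars the SD of 2 libraries. In each panel both galectin-1 libraries lie on the same side of both vehicle libraries; those of Trip10 and Cnn3 lie above and those of the other 6 genes below.

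The remaining side-binding members changed less and did not pass. Lcp1, L-plastin, the bundling protein of blood cells, was the highest of the group at 830 and 841 FPKM with vehicle and 787 and 788 FPKM with galectin-1 (log2 difference -0.09, adjusted p = 0.133). Relative to it, Flna was at 0.174 and 0.181 with vehicle and 0.154 and 0.155 with galectin-1. Of the tropomyosins, which coat filaments and set which motors and severing proteins may bind, Tpm1 and Tpm4 had differences of -0.11 and -0.10, and Tpm3 had 0.04, with adjusted p of 0.205, 0.156 and 0.479. The tropomyosin gene Tpm2 was at 0.480 to 0.654 FPKM and was not tested. The α-actinins, which crosslink filaments antiparallel, had 52.9, 54.6, 52.7 and 49.8 FPKM for Actn1 in the order vehicle 1 and 2, galectin-1 1 and 2. Actn4 had 50.4, 49.1, 52.1 and 55.6 FPKM in the same order. The ratio of Actn1 to Actn4 was 1.05 and 1.11 with vehicle and 1.01 and 0.895 with galectin-1. Their differences of -0.07 and 0.11 had adjusted p of 0.407 and 0.213. Tagln2, transgelin 2, and Cotl1, coactosin-like protein, had differences of -0.06 and 0.03.

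Of the 8 focal adhesion members, 6 were tested, of which 1 fell and 5 did not pass. Of these 6, 2 had an unadjusted p under 0.05, against 23.2% of all tested genes. Zyx, on chromosome 6 from 42349511 to 42360213, encodes zyxin, a LIM domain protein that moves to strained filaments and recruits proteins of the Ena/VASP family. It had 287 and 290 FPKM with vehicle and 240 and 239 FPKM with galectin-1. The 4 libraries separated by group with little spread, 288.4 ± 2.47 against 239.5 ± 0.814 FPKM (SD, n = 2 per group; log2 difference -0.27, standard error 0.03, adjusted p = 0.0315). Zyx was the highest of the focal adhesion members in each library.

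Vcl, vinculin, which reinforces the link between talin and actin under load, had 17.8 and 18.3 FPKM with vehicle and 15.5 and 16.1 FPKM with galectin-1. Its galectin-1 values were below both vehicle values, and it did not pass (log2 difference -0.18, 95% interval -0.30 to -0.06, adjusted p = 0.120). Ap3m1 covers 25.5% of the exonic bases of Vcl on the opposite strand. Also on the opposite strand, Pdap1 covers 18.2% of those of Arpc1b, Gm42928 17.7% of those of Cnn3 and Snx32 16.5% of those of Cfl1. On the same strand, Ptprcap covers 13.5% of those of Coro1b. The sources used here do not say whether the counting used strand. Tln1, talin, which activates integrins, had 101, 103, 102 and 104 FPKM in the order vehicle 1 and 2, galectin-1 1 and 2 (0.01, interval -0.07 to 0.09). Vasp, which elongates filaments at adhesions, had 160, 162, 157 and 158 FPKM (-0.03, interval -0.10 to 0.04). The ratio of Zyx to Tln1 was accordingly 2.83 and 2.81 with vehicle and 2.36 and 2.29 with galectin-1, and that of Zyx to Vasp was 1.79 in both vehicle libraries and 1.52 and 1.51 with galectin-1.

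Pxn, the scaffold paxillin, and Evl, a relative of Vasp, had differences of 0.08 and 0.09 with adjusted p of 0.325 and 0.373. Tln2, the second talin gene, was at 0.0311 to 0.0622 FPKM, and Enah, the third gene of the Ena/VASP family, at 0.241 to 0.383 FPKM. Both were below the test minimum in each library, so that nearly all of the talin level was that of Tln1 and nearly all of the Ena/VASP level that of Vasp and Evl.

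**Figure D4:**
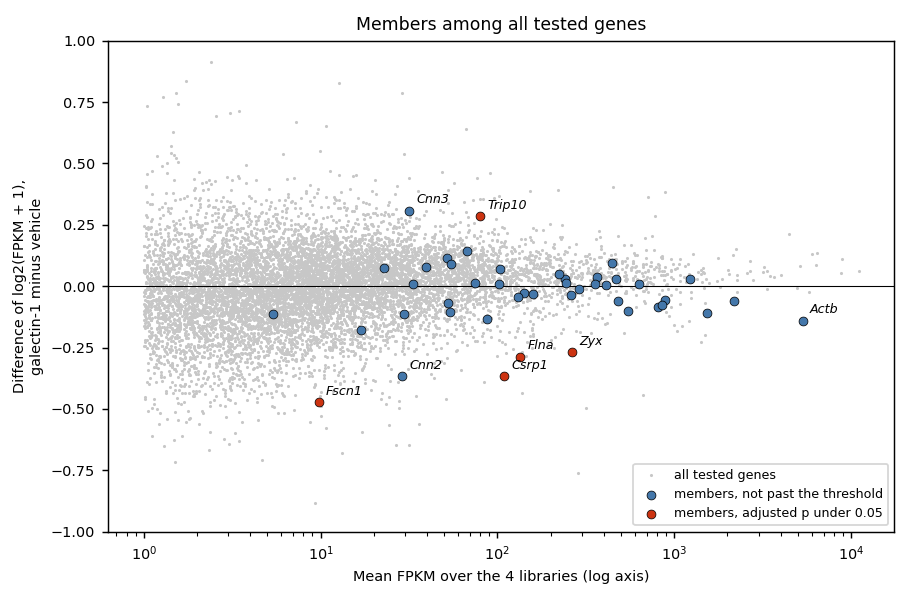
Mean FPKM over the 4 libraries (horizontal, log axis) against the difference of log2(FPKM + 1), galectin-1 minus vehicle (vertical), for all 9380 tested genes (grey) and the 45 tested members (coloured); 44 genes lie beyond the plotted range of 1 in either direction. Csrp1, Zyx and Flna lie below most genes of their level, and Actb lies below 0 at the right end.

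Of the myosin members, which form the non-muscle motor that contracts filaments, 4 of 5 were tested and 0 passed. Of the 4, 1 had an unadjusted p under 0.05, against 23.2% of all tested genes. Myl6, the essential light chain, was the highest at 907 and 908 FPKM with vehicle and 855 and 888 FPKM with galectin-1 (log2 difference -0.06, adjusted p = 0.307). Myh9, the heavy chain of non-muscle myosin IIA, had 55.3 and 55.9 FPKM with vehicle and 51.5 and 51.8 FPKM with galectin-1, without overlap (-0.10, interval -0.19 to -0.02, adjusted p = 0.164). The regulatory light chain genes Myl12a and Myl12b had differences of -0.03 and 0.01. Their RefSeq spans lie 3.3 kb apart on chromosome 17, but their exons in GENCODE M21 share 462 bases on the same strand. Of their 50-base transcript words 10.2% and 9.2% were shared, so their values depend on how reads were assigned. Myl9, the light chain of smooth muscle and fibroblasts, ranged from 0.575 to 1.19 FPKM, both in vehicle libraries, and was not tested.

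Proteins that bind monomers, sever or cap filaments had 6 tested members and 0 calls. Of the 6, 1 had an unadjusted p under 0.05, against 23.2% of all tested genes. Cfl1, cofilin, which severs old filaments, was the highest at 1217 and 1222 FPKM with vehicle and 1265 and 1227 FPKM with galectin-1 (log2 difference 0.03, interval -0.04 to 0.10). Pfn1, profilin, which feeds monomers to growing ends, had 875 and 869 FPKM with vehicle and 819 and 837 FPKM with galectin-1 (-0.08, interval -0.14 to -0.01, adjusted p = 0.175). Gsn, gelsolin, which severs and caps filaments when calcium rises, had a difference of 0.07 and an adjusted p of 0.343. Capg, the gelsolin relative of macrophages, Wdr1, a cofactor of cofilin, and Cap1, which recycles monomers, had differences of 0.01, 0.01 and -0.03.

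The Arp2/3 complex starts new branches on existing filaments, and coronins help to take branches apart. All 7 members were tested, and 0 passed (2 at an unadjusted p under 0.05, against 23.2% of all tested genes). Arpc1b, the complex subunit typical of blood cells, had 430 and 428 FPKM with vehicle and 454 and 463 FPKM with galectin-1, without overlap (log2 difference 0.09, interval 0.03 to 0.16, adjusted p = 0.126). The other subunits lay close to 0, with Arpc3 at 0.03, Arpc2 at 0.00 and Arpc5 at -0.01. Arpc3 was the highest of the group at 465 to 480 FPKM. Coro1a, the coronin of blood cells, had 88.4 and 94.3 FPKM with vehicle and 81.1 and 85.5 FPKM with galectin-1 (-0.13, interval -0.25 to -0.02, adjusted p = 0.176). Coro1b and Coro1c had differences of -0.04 and 0.01.

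The linkers of filaments to membranes held the only member that rose. All 6 linkers were tested, and 3 had an unadjusted p under 0.05, against 23.2% of all tested genes. Trip10, on chromosome 17 from 57233220 to 57263697, encodes an F-BAR protein that bends membranes and binds the WASP family of Arp2/3 activators. The stretch printed for it lies inside this span, before an internal RefSeq start. It had 71.5 and 72.2 FPKM with vehicle and 87.97 and 87.60 FPKM with galectin-1. Replicates of each group lay within 1 FPKM of each other, at 71.8 ± 0.490 against 87.8 ± 0.265 FPKM (SD, n = 2 per group; log2 difference 0.29, standard error 0.03, adjusted p = 0.0371). Ezr, ezrin, which tethers filaments to membrane proteins, had 62.6 and 65.6 FPKM with vehicle and 70.4 and 71.3 FPKM with galectin-1, without overlap (0.14, interval 0.05 to 0.24, adjusted p = 0.116). Its relatives Msn, moesin, and Rdx, radixin, had differences of 0.01 and 0.07, and Msn was the most abundant of the 3 at 354 to 362 FPKM. Marcksl1, which binds membrane lipids and filaments, was the highest of the linkers at 1560 and 1603 FPKM with vehicle and 1456 and 1474 FPKM with galectin-1 (-0.11, interval -0.18 to -0.04, adjusted p = 0.103). Marcks, its relative, had a difference of 0.05 with overlapping groups.

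Srf itself was low, at 5.37 and 5.92 FPKM with vehicle and 4.94 and 5.33 FPKM with galectin-1, just without overlap (log2 difference -0.11, interval -0.31 to 0.08, adjusted p = 0.441). Of the 6 tested members with a CArG box in a window, Actg1, Cnn2, Myl6, Srf and Vcl had a negative difference and Trip10 a positive one, with a median of -0.09. Myl9, whose window also held a box, was not tested. Of the 34 tested members with a window but no box, 17 were negative, with a median of 0.00. Among them Flna, Zyx, Capg, Wdr1, Tpm1 and Pfn1 were searched at an internal start only. The members with a box and the 4 that fell were different genes: Csrp1, Zyx, Flna and Fscn1 had no exact box in these windows.

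Genes of the same pathway outside the set were taken from 5 lists with 66 symbols, of which 63 were found and 53 tested. With limma 0 of the 53 were called in either direction, and 11 had an unadjusted p under 0.05, where this held for 23.2% of all tested genes. Their median difference was 0.02, with 32 positive and 21 negative. Among adaptors and kinases of integrin adhesions 6 of 11 had an unadjusted p under 0.05, with positive differences for Crk, Lpxn, Fermt3 and Lasp1 and negative ones for Lims1 and Src. Crk, an adaptor below paxillin, averaged 48.8 FPKM with vehicle against 55.9 FPKM (log2 difference 0.19, adjusted p = 0.0690), and Lpxn, the paxillin relative of blood cells, had a difference of 0.17 (adjusted p = 0.0986). Lims1, a LIM domain partner of integrin-linked kinase, had -0.16 (adjusted p = 0.107), and Src, a tyrosine kinase of adhesions and podosomes, had -0.13 (adjusted p = 0.189), both without overlap. Tmod3, which caps pointed ends, had 0.11 (adjusted p = 0.141). Wipf1, a partner of WASP, and Cttn, cortactin, had -0.12 and -0.25 in the list of Arp2/3 activators, where 0 of 15 had an unadjusted p under 0.05. For the formins, which elongate unbranched filaments, this count was 0 of 5.

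Of the coactivators and further known targets of serum response factor, 10 of 14 were tested and 0 passed. Differences were positive for 7 and negative for 3. Of the 10, 4 had an unadjusted p under 0.05, where this held for 23.2% of all tested genes. Mkl1, encoding MRTF-A, averaged 6.12 FPKM with vehicle against 6.34 FPKM (log2 difference 0.04). The immediate early gene Fos had 19.13 and 19.04 FPKM with vehicle and 16.1 and 17.0 FPKM with galectin-1 (-0.20, adjusted p = 0.111). Cyr61, a matrix protein gene, averaged 0.884 FPKM with vehicle against 1.65 FPKM with galectin-1 (0.49, adjusted p = 0.1). Ctgf, its relative, had a difference of 0.45 (adjusted p = 0.148). Acta2, smooth muscle actin, had 1.46 and 2.12 FPKM with vehicle and 2.89 and 2.57 FPKM with galectin-1, thus higher where Actb was lower (0.43, adjusted p = 0.149). Acta2, with Tagln at 0.16, belongs to the fibroblast and smooth muscle markers, of which 8 of 13 were tested, 8 were positive and 0 passed (2 at an unadjusted p under 0.05). Col1a1 had 1.42 and 1.16 FPKM with vehicle and 1.73 and 1.63 FPKM with galectin-1, without overlap. Bgn, the highest of that list, had 5.80 and 5.34 FPKM with vehicle and 6.69 and 7.67 FPKM with galectin-1 (0.31, adjusted p = 0.120). Dcn had 3.09 and 3.05 against 4.66 and 3.38 FPKM and Sparc 2.41 and 2.24 against 2.57 and 3.31 FPKM, also without overlap. The groups overlapped for Col1a2, at 2.81 to 3.49 FPKM, and Pdgfrb, at 1.35 to 1.45 FPKM, while Pdgfra, Lum and Thy1 were at most at 0.221 FPKM. The part of such cells in these differences was not tested.

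**Figure D5:**
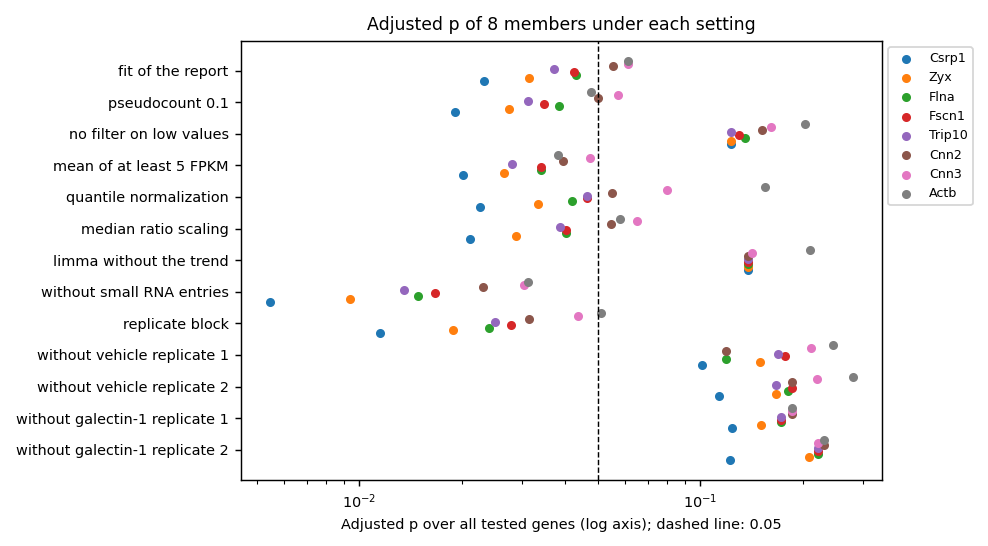
Adjusted p over all tested genes (horizontal, log axis, dashed line at 0.05) of 8 members under the fit of the report and 12 alternatives (vertical), 1 point per gene. The 5 called genes stay left of the line with another pseudocount, a stricter filter, both rescalings, without small RNA entries and with the replicate block, and lie right of it with no filter, without the trend and without any 1 library.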

How the data were processed

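RNA sequencing covered 4 libraries, 2 with vehicle and 2 with galectin-1. Per the labels' protocols the kit was stranded and selected mRNA. The authors deposited 1 FPKM value for each symbol in each library. Cufflinks 2.2.1, TopHat2 2.0.13, Bowtie2 2.2.3 and SAMtools 0.1.19 and the build mm10 are named, without roles, in the submitters' processing notes. Sources used here do not give the annotation, filters, use of strand or handling of multi-mapping reads.

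Groups came from the sample titles. Values were used as log2(FPKM + 1), on which changes of low genes are understated. Genes averaging 1 FPKM or more were fitted in limma 3.58.1 (R 4.3.3), with a variance trend, 2 residual and 3.89 prior degrees of freedom, 2-sided, with Benjamini-Hochberg adjustment over all 9380 genes. With 2 libraries per group a permutation p cannot be under 0.333, so none was computed. No libraries were copies of each other: no pair shared more than 1 equal value above 0, with equality taken exactly. Members and lists were chosen with earlier results of these data known. Members were grouped by role; those past the threshold, the highest and the 2 most changed of each role and those below the filter are given by value. Percent called is the share of all tested genes past the threshold. Low genes below 0.3 FPKM gave relative depths. Tested on simulated data for this comparison (9380 genes, 200 changed, 20 simulations), the fit recovered 28.7% of changes of 0.25, 77.9% of 0.5 and 99.3% of 1 on the log2 scale, and 6.70% of calls were false. Promoters are RefSeq's for GRCm38.p6, the assembly of mm10; exons and transcripts are from GENCODE M21. Other scalings, filters, pseudocounts, a replicate block and leaving out each library were tried. Besides the 5 pathway lists used in the report, 2 others are not reported here.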

Additional observations from a re-analysis of the deposited data

How the results depend on the processing

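Quantile normalization, median ratio scaling, pseudocount 0.1, a mean of at least 5 FPKM, the removal of small RNA entries and the replicate block kept all 5 member calls and their directions. Over all genes, no filter left 1 higher and 2 lower and limma without the trend 1 and 1, with 0 and 0 members in both. A mean of at least 5 FPKM gave 127 and 99, with 2 members higher. The removal of small RNA entries gave 189 and 176, with 2 members higher. The replicate block gave 123 and 117, with 2 members higher; the numbers are shared only by label (correlation of same-number deviations 0.01). Quantile normalization gave 24 higher. Its share of increases among calls was 33.8%, against 50.9%. Without filter the members' median was 0.0042, over 49 members.

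Leaving out 1 library, which sets 2 libraries against 1, gave 4 to 9 genes higher and 3 to 12 lower, and 0 members either way in each case; the differences of the 5 called members stayed at -0.50 to -0.25 and 0.28 to 0.29. Differences near 0 turned sign. Under quantile normalization these were Myl12b (-0.023), Tln1 (-0.012), Capg (-0.027), Wdr1 (-0.0041), Arpc2 (-0.017), Arpc3 (-0.012), Arpc5 (0.0075), Coro1c (-0.0036) and Msn (-0.013), and under median ratio scaling Arpc2 (-0.0019). Without 1 library the range crossed 0 for Tln1 (-0.0079 to 0.028), Capg (-0.025 to 0.039), Arpc5 (-0.022 to 0.0017), Msn (-0.0093 to 0.024), Coro1c (-0.028 to 0.045), Myl12a (-0.068 to 0.015) and Arpc2 (-0.011 to 0.020). The cause was not tested. Unknown depth limits statements on Tln2, Enah, Tpm2 and Myl9.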
